A study of Mus musculus with 12 samples.

Results

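Near-complete loss of DNA methylation was described for 469 genomic regions of mouse bone marrow progenitors with a mutation in Dnmt1. These were all regions, among 107115 candidate regions tabulated by the authors, whose mean methylation level over 3 replicate columns was 15% or less in the Dnmt1 mutant and 50% or more in the wild type (0.438% of the candidates). The cells were lineage-negative (lin-) bone marrow progenitors of BALB/c mice carrying a Dnmt1 mutation, and the comparison was with the same cells of wild-type BALB/c mice; neither group had a treatment, and the labels give no ages. The labels write the mutant genotype as dnmt1-/-, while the series text speaks of a missense change designed after weakened alleles found in fish. The 12 samples were 6 of each genotype, from 3 replicate numbers and 2 library kits, and the values came as 1 column per genotype and replicate number (n = 3 columns each). No label ties a replicate to an animal of its own, so the spread between columns may be technical. Lineage-negative marrow is a mixture of stem and progenitor cells, and a level is an average over that mixture, so a loss in every cell and a change in the make-up of the mixture cannot be told apart. Methylation levels alone do not allow the cell type to be checked against its markers or the mutation against its gene.

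Dnmt1 copies methylation at CpG sites onto the new strand after DNA replication, and a site that is not copied is diluted with each division. Most of the mammalian genome is methylated at CpG sites, with CpG-dense stretches (CpG islands) at many gene starts left free of the mark. Germline genes are a known class whose CpG-dense promoters are methylated in body cells. The values that chose the 469 regions were the levels themselves, so the levels and differences are given as a description, with no test. The number of CpGs, the length and the position of the regions were not used by the rule.

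The promoter sequences that bear on the regions are those where a window from 250 bases before to 50 bases after a gene start overlaps a region of near-complete loss. There were 19 such windows among the RefSeq windows of GRCm38.p6 (the same assembly as mm10), 10 of them at protein-coding genes. The 6 shown are the windows of protein-coding genes with at least 4 CpGs inside the region and any other window with at least 15, and capitals mark the CpGs that lie inside the region. The sequences are the C57BL/6J reference and not that of the BALB/c mice studied. The window of Rbmxl2 was chr7:107209195-107209494 (plus strand), that of the long non-coding RNA gene Gm33746, in the Cilp2 region, chr8:69883175-69883474 (plus), that of Ankrd6 chr4:32864484-32864783 (minus), that of Bhmg1 chr7:19118295-19118594 (minus), that of Tacc2 chr7:130577188-130577487 (plus) and that of Rap1gap chr4:137724211-137724510 (plus).
Rbmxl2: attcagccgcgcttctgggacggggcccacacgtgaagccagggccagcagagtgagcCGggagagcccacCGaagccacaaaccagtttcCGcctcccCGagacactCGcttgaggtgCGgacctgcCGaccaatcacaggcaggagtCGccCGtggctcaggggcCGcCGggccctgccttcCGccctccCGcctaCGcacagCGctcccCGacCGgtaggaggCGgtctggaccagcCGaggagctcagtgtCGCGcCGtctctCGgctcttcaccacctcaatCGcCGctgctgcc
Gm33746: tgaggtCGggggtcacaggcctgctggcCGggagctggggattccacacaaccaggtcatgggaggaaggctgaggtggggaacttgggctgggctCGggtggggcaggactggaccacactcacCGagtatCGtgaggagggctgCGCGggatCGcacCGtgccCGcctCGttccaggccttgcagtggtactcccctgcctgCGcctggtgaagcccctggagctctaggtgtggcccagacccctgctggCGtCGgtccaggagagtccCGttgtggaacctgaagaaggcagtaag
Ankrd6: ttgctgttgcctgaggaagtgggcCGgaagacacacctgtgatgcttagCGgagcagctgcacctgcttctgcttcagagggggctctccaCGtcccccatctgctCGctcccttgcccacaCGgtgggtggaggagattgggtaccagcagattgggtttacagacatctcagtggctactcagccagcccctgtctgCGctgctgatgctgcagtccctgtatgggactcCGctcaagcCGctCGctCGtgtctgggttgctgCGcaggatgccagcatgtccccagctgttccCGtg
Bhmg1: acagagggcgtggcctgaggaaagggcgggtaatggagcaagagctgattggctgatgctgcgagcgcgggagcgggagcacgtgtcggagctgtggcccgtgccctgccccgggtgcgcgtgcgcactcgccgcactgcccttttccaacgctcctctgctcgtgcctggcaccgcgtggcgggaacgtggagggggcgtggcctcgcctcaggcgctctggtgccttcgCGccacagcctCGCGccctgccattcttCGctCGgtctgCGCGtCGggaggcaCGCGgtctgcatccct
Tacc2: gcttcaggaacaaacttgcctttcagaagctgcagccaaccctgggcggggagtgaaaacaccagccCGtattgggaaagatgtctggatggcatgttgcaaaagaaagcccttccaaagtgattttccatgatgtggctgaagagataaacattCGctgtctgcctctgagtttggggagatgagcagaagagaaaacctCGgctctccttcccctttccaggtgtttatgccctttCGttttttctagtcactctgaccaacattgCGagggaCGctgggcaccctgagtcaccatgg
Rap1gap: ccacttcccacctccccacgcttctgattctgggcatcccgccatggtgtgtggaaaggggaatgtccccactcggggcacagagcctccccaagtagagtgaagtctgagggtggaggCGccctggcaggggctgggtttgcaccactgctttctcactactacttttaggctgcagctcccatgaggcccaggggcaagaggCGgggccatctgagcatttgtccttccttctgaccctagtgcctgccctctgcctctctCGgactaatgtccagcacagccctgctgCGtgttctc
At Rbmxl2 25 of the 29 CpGs of the window lay inside the region, at Gm33746 15 of 15 and at Ankrd6 12 of 12. At Bhmg1 10 of 35 did, all of them at the downstream end of the window, at Tacc2 6 of 7 and at Rap1gap 4 of 7. The 19 windows held a median of 7 CpGs (quartiles 6 and 11), against 7 (4 and 9) in windows that overlap other listed regions and 7 (3 and 20) in all windows. At least 15 CpGs were found in 15.8% of the 19 windows, 9.97% of those at other listed regions and 34.6% of all windows. Searched on both strands, the E-box CACGTG was in 3 of the 19 windows (15.8%), in 7.11% of those at other listed regions and in 7.15% of all. The windows of Rbmxl2 and Bhmg1 are among the 3, and in both the CpG of the E-box lies outside the region. The GC box GGGCGG was in 26.3% of the 19 windows, 22.4% of those at other listed regions and 35.7% of all windows. In the same order, CCAAT was in 42.1%, 34.5% and 37.4%, TATAAA in 10.5%, 9.71% and 13.6%, and the cyclic AMP response element TGACGTCA in 0%, 1.47% and 1.79%. These letter matches describe the windows and are no sign of a bound factor.

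Across the 469 regions the level was 10.6% ± 0.456 in the Dnmt1 mutant, against 60.5% ± 0.255 in the wild type (SD over replicate columns, n = 3 each). The mutant columns averaged 10.1%, 11% and 10.8%, and the wild-type columns 60.4%, 60.8% and 60.3%. The mutant minus wild-type difference was -49.8 percentage points, or -82.4% in relative terms. All 469 regions were in the authors' list of hypomethylated regions, which holds 33.1% of the candidates, and they made up 1.32% of that list. The smallest loss in that list was -20 points and the limits of the rule require a larger one, so their presence there is not a finding. The other 33193 listed regions with a wild-type level of 50% or more had 50.9% ± 2.41 in the mutant, against 79.0% ± 0.377 in the wild type (SD, n = 3 columns each), a difference of -28.1 points. The regions of near-complete loss thus kept a median of 18.7% of their wild-type level, and the other listed regions 66.9%, which restates the rule.

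**Figure D1:**
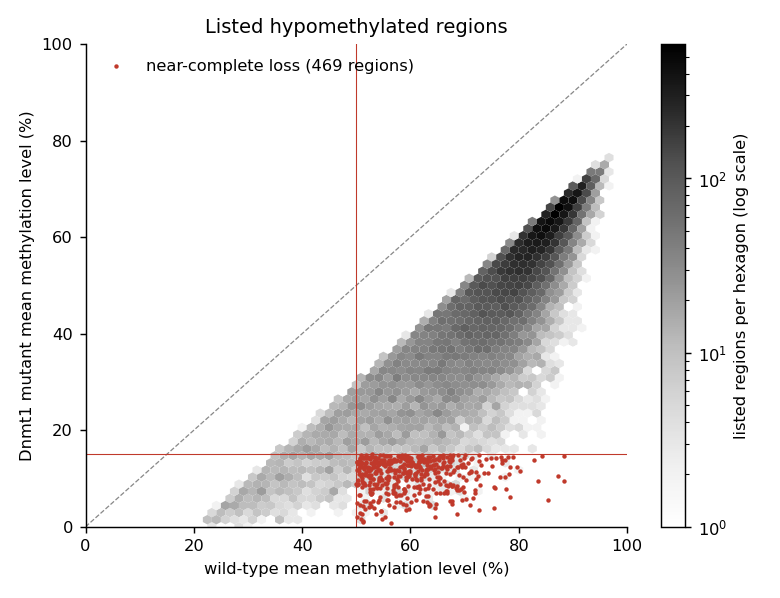
Mean methylation level of each listed hypomethylated region in the Dnmt1 mutant (vertical axis, %) against the wild type (horizontal axis, %), with grey hexagons shaded by the number of regions on a log scale. Red points are the 469 regions of near-complete loss, inside the lines at 15% and 50%, and lie at the lower edge of a cloud without a gap.

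The regions formed no separate cloud but the lower edge of a continuous spread, as the plot of mutant against wild-type level shows. Their median mutant level was 11.5% (quartiles 8.37 and 13.4) and their median wild-type level 59.3% (54.1 and 65.2). The median difference was -48.8 points (quartiles -54.5 and -43.7), with a range of -79.7 to -35.9. A mutant mean of 10% or less was found in 170 regions and of 5% or less in 37, while a wild-type mean of 60% or more was found in 218, of 70% or more in 52 and of 80% or more in 8. Among the 4 regions nearest the mutant limit on either side, those at Slc7a7 and Ttc9b inside it and at Igsf21 and Slc6a11 outside it, all had a mutant mean that rounds to 15%. Among those nearest the wild-type limit, the Lamb2 region was inside at 11.7% in the mutant, against 50.1% in the wild type, and the Chst12 region outside at 11.6% and 49.9%. A difference of 50 points or more was found in 205 of the regions, which are 30.4% of the 674 listed regions with a difference of that size.

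Every mutant column lay below every wild-type column in 469 of 469 regions, where the share over all candidate regions was 94.3%. The rule used these values, so the count is not a finding. The gap between the highest mutant and the lowest wild-type column was at least 18.6 points and had a median of 41.2 points. Single columns did not all keep the limits set for the means. All mutant columns were at 15% or less in 268 regions, all wild-type columns were at 50% or more in 341, and both held in 186. At least 1 mutant column was at 0% in 8 regions.

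**Figure D2:**
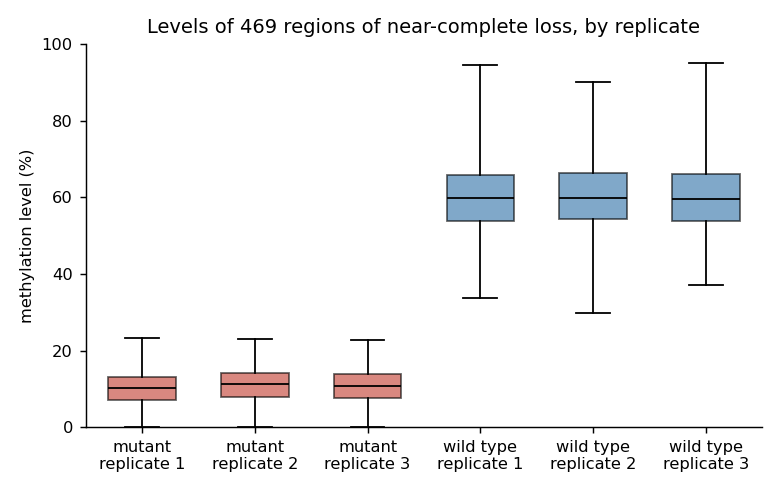
Methylation levels (%) of the 469 regions in each replicate column, with the Dnmt1 mutant columns at the left and the wild-type columns at the right. Boxes span the quartiles with the median as a line, and whiskers reach the lowest and highest region. The medians are 10.3%, 11.3% and 10.8% in the mutant columns and 59.9%, 59.9% and 59.6% in the wild-type columns.

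The spread between columns is drawn from the values the rule used, and a mutant mean capped at 15% limits the mutant spread, so it is a description and no finding. As the box plot by replicate shows, the columns of a genotype had similar medians. Mutant replicate 1 was the lowest mutant column in 43.3% of the regions, replicate 2 in 27.5% and replicate 3 in 29.2%, against 57.2%, 28.8% and 14.0% of the other listed regions with a wild-type level of 50% or more. The median SD between columns was 2.75 points in the mutant columns and 4.30 points in the wild-type columns, whereas in the other listed regions the mutant SD was 4.37 points and the wild-type SD 2.62 points. The mutant SD exceeded the wild-type SD in 31.8% of the regions of near-complete loss and in 72.6% of the others. The largest mutant SD, 10.3 points, was near Sim2 (chr16:94066270-94066661), a neural transcription factor gene, with 2.75%, 21.6% and 19.2% in the mutant columns and 53.6%, 66.3% and 64.0% in the wild-type columns. The widest mutant range was at Arl9, in a region (chr5:77002894-77003052) that lies inside the RefSeq span of the gene but 1003 bases from it as deposited. There the mutant columns were at 23.3%, 10.6% and 3.89% and the wild-type columns at 68.9%, 57.8% and 58.1%. The low column was replicate 1 near Sim2 and replicate 3 at Arl9, and in neither did the genotypes overlap.

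The regions of near-complete loss packed their CpGs more closely than other listed regions. They held a median of 28.2 CpGs per kb (quartiles 20.2 and 41.5), against 17.6 (13.6 and 24.0) in the other listed regions with a wild-type level of 50% or more. Their median length was 497 bases (331 and 741), against 734, and their median number of CpGs 13 (10 and 18), against 12. More than 50 CpGs per kb were found in 79 regions (16.8%), against 3.15% of the others, and more than 30 CpGs in 34 (7.25%), against 3.16%. The difference in density stood within each band of wild-type level. It was 26.9 against 18.3 CpGs per kb at wild-type levels of 50 to 60%, 28.9 against 17.1 at 60 to 70%, and 33.1 against 17.6 above 70%. Among regions with exactly 10 CpGs, the smallest number in the list, the medians were 25.1 CpGs per kb in 141 regions of near-complete loss and 17.5 in the other 12554. Regions are not replicates, and no test was made of these differences.

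**Figure D3:**
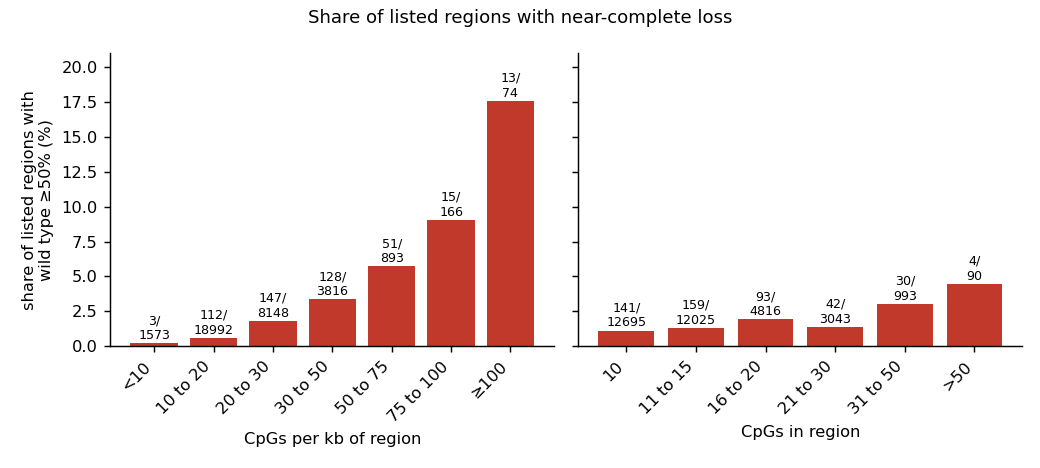
Share (%) of listed hypomethylated regions with a wild-type level of 50% or more that met the limit of near-complete loss, by CpGs per kb (left) and by number of CpGs (right). Numbers above the bars are regions of near-complete loss over all listed regions of that bin, and the share climbs from 0.191% to 17.6% across the density bins.

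The share of listed regions that reached near-complete loss was higher in each successive bin of CpG density. It was 0.191% below 10 CpGs per kb, 0.590% from 10 to 20, 1.80% from 20 to 30, 3.35% from 30 to 50, 5.71% from 50 to 75, 9.04% from 75 to 100 and 17.6% (13 of 74 regions) at 100 or more. By number of CpGs it ran from 1.11% at 10 CpGs to 4.44% above 50 CpGs (4 of 90 regions), without the same order in every bin.

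The most CpGs in a region of near-complete loss were at Rbmxl2, a retrogene that encodes a germ cell RNA-binding protein. Its region (chr7:107209251-107210605, 119 CpGs) covers the gene start shown above. The mutant columns were at 10.6%, 6.58% and 7.64%, and the wild-type columns at 54.4%, 52.7% and 46.3%. The next was in Dact3, which encodes an inhibitor of Wnt signalling (chr7:16885657-16886403, 93 CpGs), with 16.8%, 15% and 11.6% in the mutant, against 65.2%, 67.3% and 63.0% in the wild type. Nrtn encodes neurturin, a ligand of the GDNF family, and its region (chr17:56751197-56751893, 78 CpGs) was at 11.6%, 6.55% and 8% in the mutant, against 65.7%, 74.2% and 63.8% in the wild type. At all 3 genes the genotypes were apart by more than the range within either. The lowest q-value of the 469 in the authors' deposited table was 6e-70, at Rbmxl2.

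Apc2, a relative of the tumour suppressor gene Apc, and Prdm16, a zinc finger regulator needed by blood stem cells, held the regions of 40 or more CpGs with the highest wild-type levels. In Apc2 (chr10:80312447-80313492, 60 CpGs) the mutant columns were at 11.2%, 11.5% and 5.51% and the wild-type columns at 86.9%, 90.1% and 87.9%. In Prdm16 (chr4:154334358-154335629, 44 CpGs) they were at 13.9%, 7.70% and 20.1% in the mutant, against 85.1%, 82.9% and 80.7% in the wild type, so that the mutant columns spread more widely there. Tubb5, a beta-tubulin gene, had 6.41%, 9.33% and 7.06% in the mutant, against 71.0%, 73.7% and 71.2% in the wild type (chr17:35835025-35836299, 50 CpGs). Zbtb7c, a zinc finger gene, had a region of 50 CpGs on chromosome 18 with 10.3% ± 4.49 in the mutant, against 76.6% ± 5.28 in the wild type (SD, n = 3 columns each).

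The largest differences were otherwise in short regions. The largest of all was intergenic, nearest to Gm5441 (chr12:117379582-117379790, 10 CpGs), with 6.11%, 6.22% and 4.56% in the mutant, against 83.1%, 82.6% and 90.3% in the wild type. A region in Tfpt lay within 1 kb of the starts of Tfpt and Prpf31, 880 bases from the nearest (chr7:3628848-3629049, 11 CpGs). These are genes of a chromatin remodelling subunit and a splicing factor. The mutant columns there were at 16.2%, 4.70% and 10.9% and the wild-type columns at 87.0%, 84.4% and 90.6%. Regions in Cacnb4, Lnx2, Trim31 and Vtn and near Gm14267 differed by -74.1, -72.1, -71.5, -69.8 and -73.7 points. The Gm14267 region had a wild-type column of 75.5% beside 94.5% and 95.1%, the widest wild-type spread among the 8 regions with the largest differences.

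The lowest mutant levels came with wild-type levels of 50.2% to 64.4%. A region that overlapped Gm37267 as deposited (chr1:180510505-180511000, 15 CpGs) had 0.714%, 0% and 1.43% in the mutant, against 52.6%, 57.1% and 59.4% in the wild type. A region of 16 CpGs in Spire2, an actin nucleator gene, and in the long annotated transcript Gm20388 (chr8:123353994-123354261) had 2.53%, 0% and 0.933% in the mutant, against 59.5%, 47.3% and 46.9% in the wild type. Regions in Crtac1 and Creb3l2 and near Gm26769, Slco5a1 and Wdr5b, also among the lowest 8, had mutant means of 1.07% to 2.11%. In the authors' deposited table the mutant mean was 5.13% at Gm26769 and 4.07% at Crtac1. The means of the replicate columns there were 1.07% and 1.93%, so the order of the lowest levels depends on which mean is used. The steps of the column levels in the named regions fit an average over fewer CpGs than the authors' number printed with each region. Whether this sets the means apart was not tested. Without read counts the depth behind a level of 0% is unknown.

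**Figure D4:**
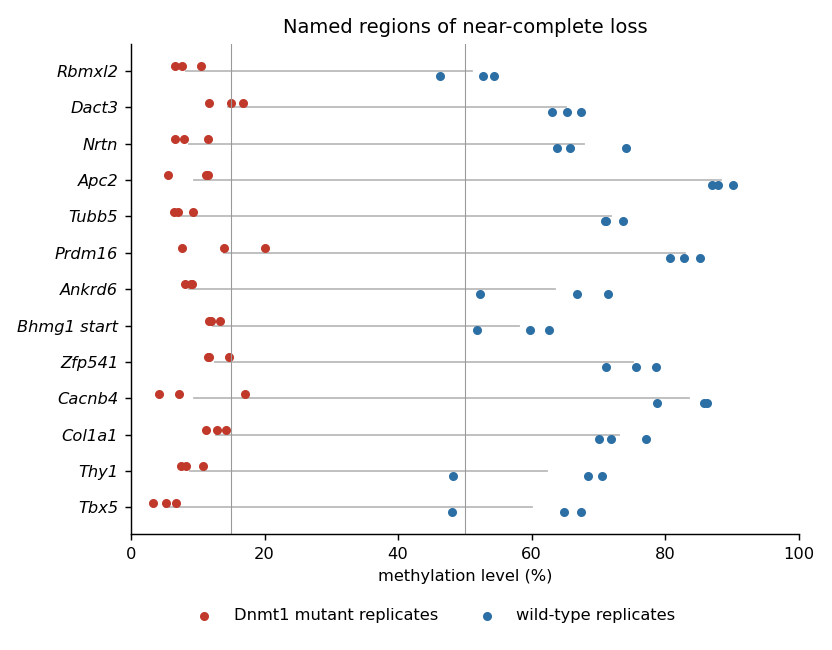
Methylation level (%) of each replicate column in 13 named regions of near-complete loss, with Dnmt1 mutant columns in red, slightly above each line, and wild-type columns in blue. Grey bars join the genotype means, and thin vertical lines mark 15% and 50%. No mutant column reaches a wild-type column in any of the 13 regions.

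Near-complete loss lay within 1 kb of a protein-coding gene start in 70 regions (14.9%), against 6.78% of the other listed regions with a wild-type level of 50% or more, but most of these regions lay beside the start. A gene start itself was overlapped by 7 of the 469 (1.49%). Among the 558 listed regions with a wild-type level of 50% or more that overlapped a start, these 7 were 1.25%. That is near the 1.39% of all listed regions with such a wild-type level, so the count is no trait of the 469. Within bands of wild-type level the shares were closer, at 17.1% against 13.9% (wild type 50 to 60%), 13.3% against 10.7% (60 to 70%) and 9.62% against 5.77% (above 70%). With 500 bases on either side the share was 7.04% against 3.94%. In the band of 50 to 60% it was then 7.17% against 7.74%, which turns the direction. The other bands kept it, at 7.83% against 6.17% (60 to 70%) and 3.85% against 3.39% (above 70%). Gene bodies held 216 regions (46.1%), against 55.6% of the others, and 183 (39.0%), against 37.6%, were intergenic. The median distance to a gene start was 14866 bases, against 21265, but within bands of wild-type level the gap was small, at 13929 against 15214 (50 to 60%), 17374 against 18003 (60 to 70%) and 21643.5 against 22155.5 (above 70%).

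Among promoters, the Ankrd6 region (chr4:32862581-32864999, 42 CpGs), at a gene for a modulator of Wnt signalling, was the longest of the 469 at 2418 bases. Its mutant columns were at 8.98%, 9.17% and 8.07%, and its wild-type columns at 52.3%, 71.4% and 66.8%, so that wild-type replicate 1 stood lower. Paqr6, a membrane progestin receptor gene (chr3:88365435-88366706, 38 CpGs), had 12.4%, 12.9% and 10.4% in the mutant, against 69.6%, 68.8% and 61.7% in the wild type. Lrrc10, a gene of heart muscle (chr10:117045318-117046290, 36 CpGs), had 12.1%, 15.8% and 15.5% in the mutant, against 68.0%, 62.9% and 69.1% in the wild type. Both were separated by more than 45 points between the nearest columns of the genotypes.

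Bhmg1, called Gm4969 in the deposited list and also known as Meiosin, encodes a factor that starts meiosis and was not in the germline list used below. The region at its start (chr7:19118044-19118361, 31 CpGs), had 12%, 11.7% and 13.4% in the mutant, against 51.8%, 59.8% and 62.6% in the wild type. The adjoining candidate region, 1 base away, was less low in the mutant, with 19.2% in the mutant, against 53.2% in the wild type. A region 686 bases from the nearest gene start lay within 1 kb of the starts of Ppp1r3d and Fam217b (chr2:178413446-178413777, 25 CpGs). There the mutant columns were at 17.5%, 11.9% and 13.7%, and the wild-type columns at 72.1%, 82.0% and 75.8%. Ppp1r3d encodes a subunit that brings protein phosphatase to glycogen. At the remaining promoter regions picked by number of CpGs, those of Tmem250-ps, Afmid and Tk1, Usp19, Wdr24, Rpp25l and Actl10, mutant means were 6.98% to 14.3% and wild-type means 50.1% to 69.9%. At Rap1gap, whose product switches off the GTPase Rap1, the window printed above holds 4 CpGs of a region of 15 with 3%, 4.29% and 3.57% in the mutant, against 39.0%, 59.4% and 56.7% in the wild type.

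The neighbourhood of the regions is described by the nearest other candidate region. It was not held to the limit of 15%, so a higher mutant level there is no finding. The nearest other candidate region lay within 5 kb for 356 of the 469 (75.9%), at a median distance of 585.5 bases. These neighbours had medians of 36.9% in the mutant, against 72.2% in the wild type. Neighbours of the other listed regions, found within 5 kb for 77.1%, had 60.1% in the mutant, against 83.4% in the wild type at a median of 905 bases. A neighbour with a wild-type level under 20% stood beside 61 of these 356 regions (17.1%), against 5.96% of the others that had a neighbour. The neighbour was itself a region of near-complete loss in 17 of the 356 (4.78%), against 0.703%. These shares were not split by the regions' own wild-type level, with a median of 59.3% in the 469 and 81.0% in the others. Beside the Dact3 region, 2 bases away, a candidate region was lower than it in both genotypes, at 1.84% in the mutant, against 29.5% in the wild type, and beside the Apc2 region, 39 bases away, one had 38.2% in the mutant, against 92.8% in the wild type. The authors' caller set the region borders on these same samples, and the part of that in the lengths, the densities and the neighbours' levels was not tested.

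Within 10 kb of each other, 41 regions formed 20 groups, and no such count was made for other listed regions. The largest group was 3 regions in Cilp2, a gene of a cartilage matrix protein, on chromosome 8 with 75 CpGs in all. These had mutant means of 5.19%, 4.53% and 11.7% and wild-type means of 58.0%, 50.8% and 54.1%, in order along the chromosome. Hcn2, which encodes a pacemaker channel, held a pair with mutant means of 8.20% and 9.56% and wild-type means of 75.5% and 57.6%. Gng7, a G protein subunit gene, held a pair with 5.20% and 2.94% in the mutant, against 54.1% and 50.8% in the wild type. The regions overlapped 320 genes of the deposited list, 15 of them with 2 or more regions, led by Gm20388 with 9. The long transcript Gm20388 had regions as far apart as chr8:122181774-122182111 and chr8:123353994-123354261. The share of listed regions per gene was not counted, so the 9 is no trait of that gene. By chromosome, chromosome 4 held the most (58 regions), but it also had the most listed regions (3459), a share of 1.68%. Among the autosomes the share of listed regions was between 0.609% on chromosome 12 and 2.10% on chromosome 10.

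Counts in gene lists were small, and each is read beside the 1.32% of all listed regions with near-complete loss. Among germline genes 2 of 47 listed regions had it, at Rbmxl2 and at Zfp541, a gene of meiotic chromatin (chr7:16061522-16062006, 33 CpGs). The second region overlaps the edge of the RefSeq span of Zfp541 but lies 9839 bases from the gene start used here, and outside the gene as deposited. The region at Zfp541 had 11.6%, 14.7% and 11.6% in the mutant, against 75.6%, 78.7% and 71.1% in the wild type. Among lymphoid genes 1 of 125 listed regions did, at the T cell surface gene Thy1 (chr9:44046567-44046910, 12 CpGs), with 8.27%, 10.8% and 7.45% in the mutant, against 48.2%, 70.5% and 68.5% in the wild type. Wild-type replicate 1 stood apart from the other wild-type columns there but not near the mutant. Myeloid genes had 0 of 34 and erythroid and platelet genes 1 of 73 (the urea transporter gene Slc14a1, with 12.5% ± 0.0667 in the mutant, against 78.4% ± 2.37 in the wild type, SD, n = 3 columns each).

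Imprinted genes had 0 of 28 listed regions with near-complete loss, genes of the methylation machinery 0 of 28, and cadherin and protocadherin genes 0 of 264. Developmental transcription factor genes had 3 of 139, at Prdm16, Glis1 and Tbx5. Tbx5, a regulator of heart and forelimb (chr5:119847899-119848068, 10 CpGs), was at 3.33%, 5.22% and 6.78% in the mutant, against 67.3%, 64.8% and 48.0% in the wild type. Ion channel genes had 14 of 859, in 12 genes. Examples were the calcium channel genes Cacna1a, with 7.83% ± 3.37 in the mutant, against 61.7% ± 3.32 in the wild type, and Cacna1e, with 9.41% ± 2.96 in the mutant, against 65.0% ± 5.24 in the wild type (SD, n = 3 columns each). Neurotransmitter receptor genes had 5 of 266, at Chrm2, Chrm4, Chrna10, Drd4 and Grik3, and the Chrm4 region, in the RefSeq span of a muscarinic receptor gene but outside it as deposited, was at 8.11% ± 3.03 in the mutant, against 68.4% ± 4.64 in the wild type (SD, n = 3 columns each).

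Collagen, laminin and matrix protease genes had 8 of 368 listed regions, among them Col1a1, the main bone collagen gene (chr11:94941243-94941929, 12 CpGs), at 12.8%, 11.3% and 14.2% in the mutant, against 77.1%, 71.9% and 70.1% in the wild type. In Mmp11, a matrix protease gene, the mutant columns were at 19.8%, 7.87% and 9.60% and the wild-type columns at 76.1%, 85.2% and 77.5%. Zinc finger genes had 9 of 391, tripartite motif genes 2 of 87, solute carrier genes 8 of 707 and G protein-coupled Gpr and Adgr genes 1 of 175. Among solute carriers, Slc1a5, which encodes a glutamine transporter, was at 3.42%, 8% and 6.25% in the mutant, against 55.8%, 60% and 62.2% in the wild type. A microRNA hairpin, that of Mir1905, lay inside a region in Mex3a (chr3:88536127-88536688).

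In the authors' deposited table, metilene q-values under 0.05 belonged to 387 of the 469 regions (82.5%), where the share of all listed regions was 23.3%. The q-value comes from the same contrast as the rule, so nothing is read from this count. In the authors' deposited table the median q of the 469 was 4.7e-05, and 35 regions had a q of 1.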

How the data were processed

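Genomic DNA of lin- bone marrow progenitors was sequenced for 12 samples in paired-end mode with 100 base reads, after the TruSeq DNA Methylation or the NEBNext Enzymatic Methyl-seq kit, per the labels' protocols. The authors deposited a table of 107115 candidate regions with a methylation level, a fraction from 0 to 1, in each of 6 columns. Each column is named in the labels of both kits' libraries, and no source used here says whether their reads were merged. The deposited list of hypomethylated regions adds the authors' number of CpGs, group means, a score (the difference of means) and the metilene q-value. In the named regions the column levels appear to average fewer CpGs than that number. Per the submitters' processing notes the genome build was mm10. Aligner and methylation caller were not given in the sources used here. No read counts accompany the levels, so depth is unknown and no counting interval can be given.

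Levels were multiplied to percent and averaged over columns. Pairs of wild-type columns differed by medians of 2.44 to 2.56 points and pairs of mutant columns by 3.69 to 5.11 points. Differences are mutant minus wild type. CpGs per kb divide the authors' number by end minus start. Gene starts came from RefSeq promoter windows of GRCm38.p6 (17492 genes) or the strand in the deposited list (1872), of 21900 protein-coding genes; promoters are 1 kb either side, gene bodies other overlaps with a protein-coding gene. Coordinates are as deposited; in all 1547 starts inside promoter windows the C of the first CpG lay 2 bases further, and in all 1512 ends the C of the last CpG lay 1 base further. Named regions were those with the most CpGs, the largest difference, the lowest mutant level, the widest mutant range, promoters by CpGs, up to 4 a gene list, clusters and those nearest the limits; not all are printed, and some regions and a gene list under this rule are left out of the text. The members, gene lists and this rule were chosen with earlier results of these data known, and Rap1gap, Tacc2, Gm33746 and Mir1905 were named after their values were seen. No test was made, since the rule used the contrast. Overlap and distance routines were tested on simulated data. Other limits, medians, the authors' means, left-out replicates and CpG minimums were tried. Python 3.11.15, numpy 2.4.6, pandas 2.3.3 and matplotlib 3.10.9 were used.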

Additional observations from a re-analysis of the deposited data

How the results depend on the processing

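The number of regions depended on the limits. A mutant limit of 10% gave 170 regions (median difference -51.6 points, median length 459.5 bases, 63.5% overlapping a protein-coding gene) and of 20% gave 1106 (-45.9 points, 548.5 bases). A wild-type limit of 60% gave 218 (-54.9 points) and of 40% gave 846 (-41.0 points). At least 20 CpGs left 84 regions with a median of 27 CpGs (-51.0 points, 842 bases, 76.2% overlapping a gene). Medians of the columns gave 518 regions, 418 of them shared with the 469, and the authors' group means 448, with 402 shared. Leaving out each replicate in turn gave 466 to 539 regions, of which 417 to 447 were shared, and median differences from -49.5 points (without mutant replicate 2) to -48.5 points. The median CpG density was 25 to 32.6 CpGs per kb over these settings. With 500 bases either side 7.04% lay at promoters, and with 5 kb added to each gene 68.2% overlapped a gene, against 14.9% and 58.6% as reported. No paired analysis was possible because the results come from no test: the rule used the contrast in all columns, so no model was fitted with or without a block for the shared replicate numbers. Unknown depth limits all single levels, above all those near 0% and those of regions with 10 CpGs.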
